A study of Mus musculus with 8 samples.

Results

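The nuclear genes for the subunits of the oxidative phosphorylation complexes were compared in dermal fibroblasts of old and young mice. They were taken by name: every gene with a probe set annotated to a single symbol beginning Ndufa, Ndufb, Ndufc, Ndufs, Ndufv, Uqcr, Cox4 to Cox8 or Atp5, with Sdha, Sdhb, Sdhc and Sdhd, and without the Ndufaf assembly factors. This gave 80 genes of the 17097 genes tested and 139 of the 28898 singly annotated probe sets. Complex I held 35 of the genes, complex II 4, complex III 7, complex IV 17 and complex V 17. Where a gene had several probe sets, the one with the brightest average signal across the 8 arrays stood for it.

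The arrays came from 4 old mice, 18 months of age, and 4 young mice, 2 months of age, with 1 array per animal. After removal of the subdermis and collagenase digestion, fibroblasts were sorted as positive for Pdgfra and CD34 and negative for CD45, CD117, CD24, CD31 and EpCam. One old and one young mouse were taken on each day of collection, and the labels do not say which specimen numbers shared a day. Strain, sex and any treatment are not given in the labels.

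Oxidative phosphorylation takes place in the inner mitochondrial membrane. Complex I (NADH dehydrogenase) and complex II (succinate dehydrogenase) pass electrons to ubiquinone, complex III passes them on to cytochrome c, and complex IV (cytochrome c oxidase) hands them to oxygen. Complexes I, III and IV pump protons, and complex V (ATP synthase) uses the resulting gradient to make ATP. Each complex except complex II also contains subunits encoded in mitochondrial DNA; of these, 13 were listed and none was among the named probe sets, so they are not analysed here. Several complex IV subunits exist as paralogs used in different tissues.

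Most subunit genes differed little between the ages. In old fibroblasts 3 of the 80 genes rose (Cox6b2, Sdha and Ndufa10) and 9 fell (Ndufa4l2, Cox7a1, Ndufa4, Ndufs4, Ndufa3, Atp5k, Atp5e, Atp5mpl and Sdhc), while 68 did not pass the test. The test was limma's moderated comparison of log2 values, 2-sided, and a gene was called at an adjusted p under 0.05 (Benjamini-Hochberg, taken across the whole set of 17097 genes). The shares were 3.75% higher and 11.2% lower, against 9.87% higher and 7.66% lower among all genes tested. The probe sets of the subunit genes were bright, with a median signal of 10.15 against 5.99 for all genes, and calls were more frequent among bright probe sets. Among the 6756 genes with a mean of at least 7, 19.6% were higher and 13.8% lower, and of the 74 subunit genes above that level 3 were higher and 12 lower when the fit was restricted to them. The share that fell was thus near that of genes with a mean of at least 7, and the share that rose was below it. No set matched to the higher level of the subunit genes was drawn.

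The differences of the subunit genes were small and mostly below 0. Of the 80 genes, 28 lay above 0, 51 below and 1, Atp5md, at 0, with a median old minus young difference of -0.058 (quartiles -0.158 and 0.044), against a median of 0.007 for all genes tested (quartiles -0.1 and 0.132). At an unadjusted p under 0.05, 8 genes were higher and 18 lower, beside 16.6% higher and 13.1% lower among all genes. The old and young values did not overlap for 8 genes that were higher and 16 that were lower, beside 11.7% and 9.66% of all genes. Fewer cells of a type and less RNA per cell cannot be told apart in such bulk samples.

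**Figure D1:**
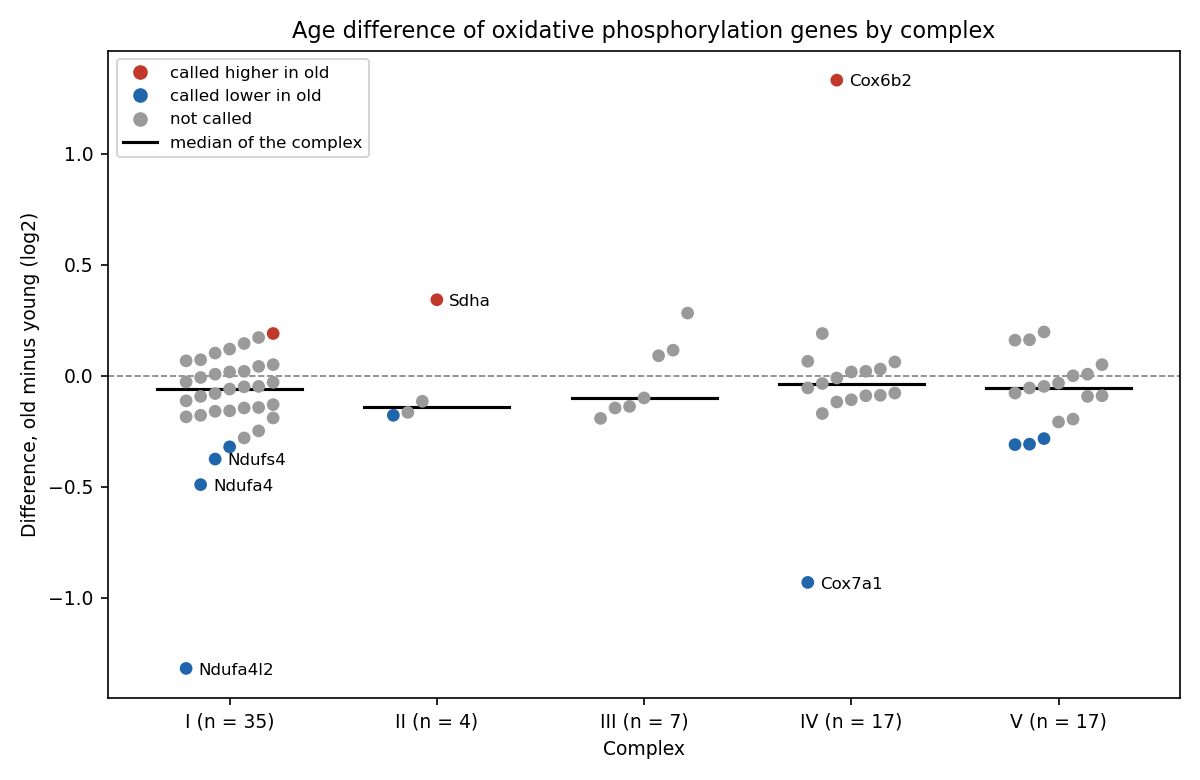
Old minus young difference (log2) of each of the 80 genes, grouped by complex, with the median of each complex as a bar. Red and blue points passed the adjusted threshold, and Ndufa4l2, Ndufa4, Ndufs4, Sdha, Cox6b2 and Cox7a1 are named. The medians lie between -0.14 and -0.035, and Ndufa4l2 (-1.32), Cox7a1 (-0.93) and Cox6b2 (1.33) stand far from the rest of their complex.

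The 5 complexes had medians between -0.14 and -0.035. The median difference was -0.06 for complex I, -0.14 for complex II, -0.10 for complex III, -0.035 for complex IV and -0.055 for complex V. Genes below 0 numbered 23 of 35 in complex I, 3 of 4 in complex II, 4 of 7 in complex III, 10 of 17 in complex IV and 11 of 17 in complex V. Called genes numbered 1 higher and 4 lower in complex I, 1 higher and 1 lower in complex II, and 0 in complex III. In complex IV 1 was higher and 1 lower, and in complex V 0 were higher and 3 lower. The 4 lower in complex I, counted by name, include Ndufa4, now known as a component of complex IV, and its paralog Ndufa4l2. With Ndufa4 moved to complex IV and Cox7a2l left out, the medians of complexes I and IV were both -0.055. At an unadjusted p under 0.05 with limma, 1 gene was higher and 1 lower in complex III, and 3 were higher and 5 lower in complex V. With 1 array left out the median lay between -0.093 and -0.038 for complex I, between -0.161 and -0.118 for complex II, between -0.163 (without young specimen 1) and -0.018 (without old specimen 2) for complex III, between -0.052 and 0.001 for complex IV, and between -0.076 and -0.043 for complex V. The low end was without young specimen 1 for complexes I and V, and the high end without young specimen 2, or in complex V also without young specimen 3; for complex IV the ends were without young specimen 1 and without old specimen 2. The differences between complexes were not tested.

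The arrays of an age group spread about as widely as the ages differed. When each gene was centred on its mean over the 8 arrays, the median over all 80 genes was 0.047, -0.077, -0.034 and -0.013 in the old arrays, against -0.056, 0.091, 0.068 and 0.012 in the young arrays. The groups overlapped, with old specimen 1 above all young arrays except specimens 2 and 3 and young specimen 1 below every old array except specimen 2. For complex II the medians were -0.061, -0.101, -0.081 and 0.018 in the old arrays, against 0.038, 0.058, 0.094 and 0.024 in the young arrays, which did not overlap but rest on 4 genes. Complexes I, III, IV and V each overlapped between the ages, and in each of them young specimen 1 had the lowest median of the young arrays and old specimen 1 the highest of the old arrays.

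**Figure D2:**
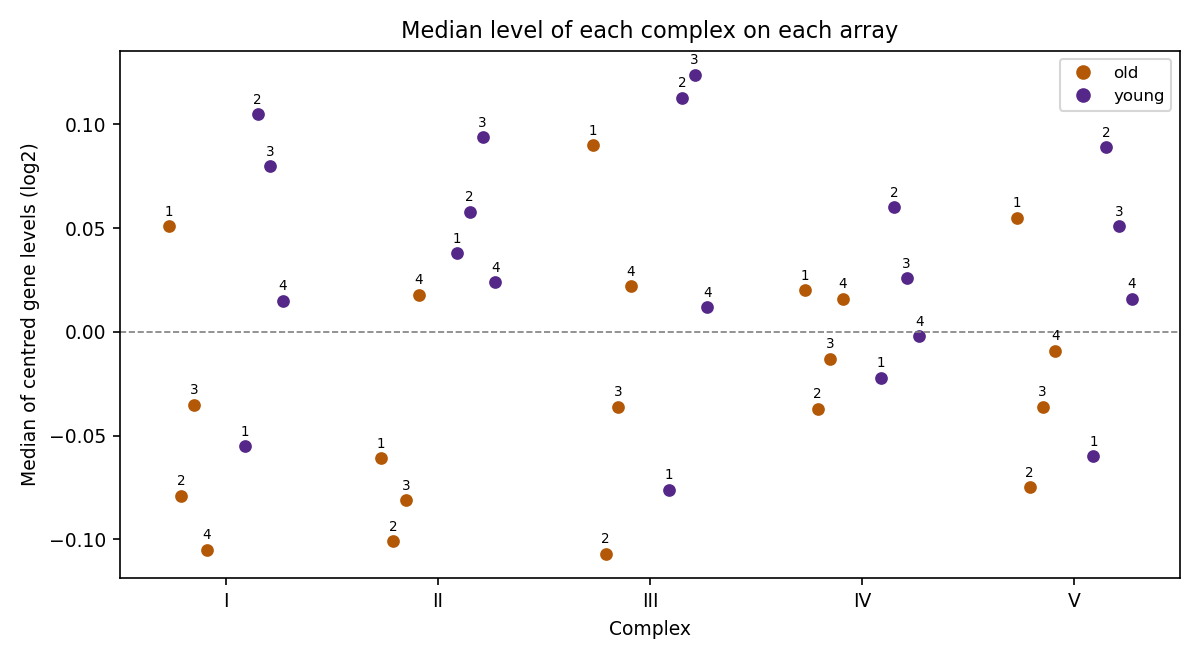
Median of the centred log2 values of each complex in each array, old arrays left of young arrays; each point is 1 array and carries its specimen number. Only complex II, with 4 genes, has no overlap between the ages, and young specimen 1 sits low in complexes I, III, IV and V.

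**Figure D3:**
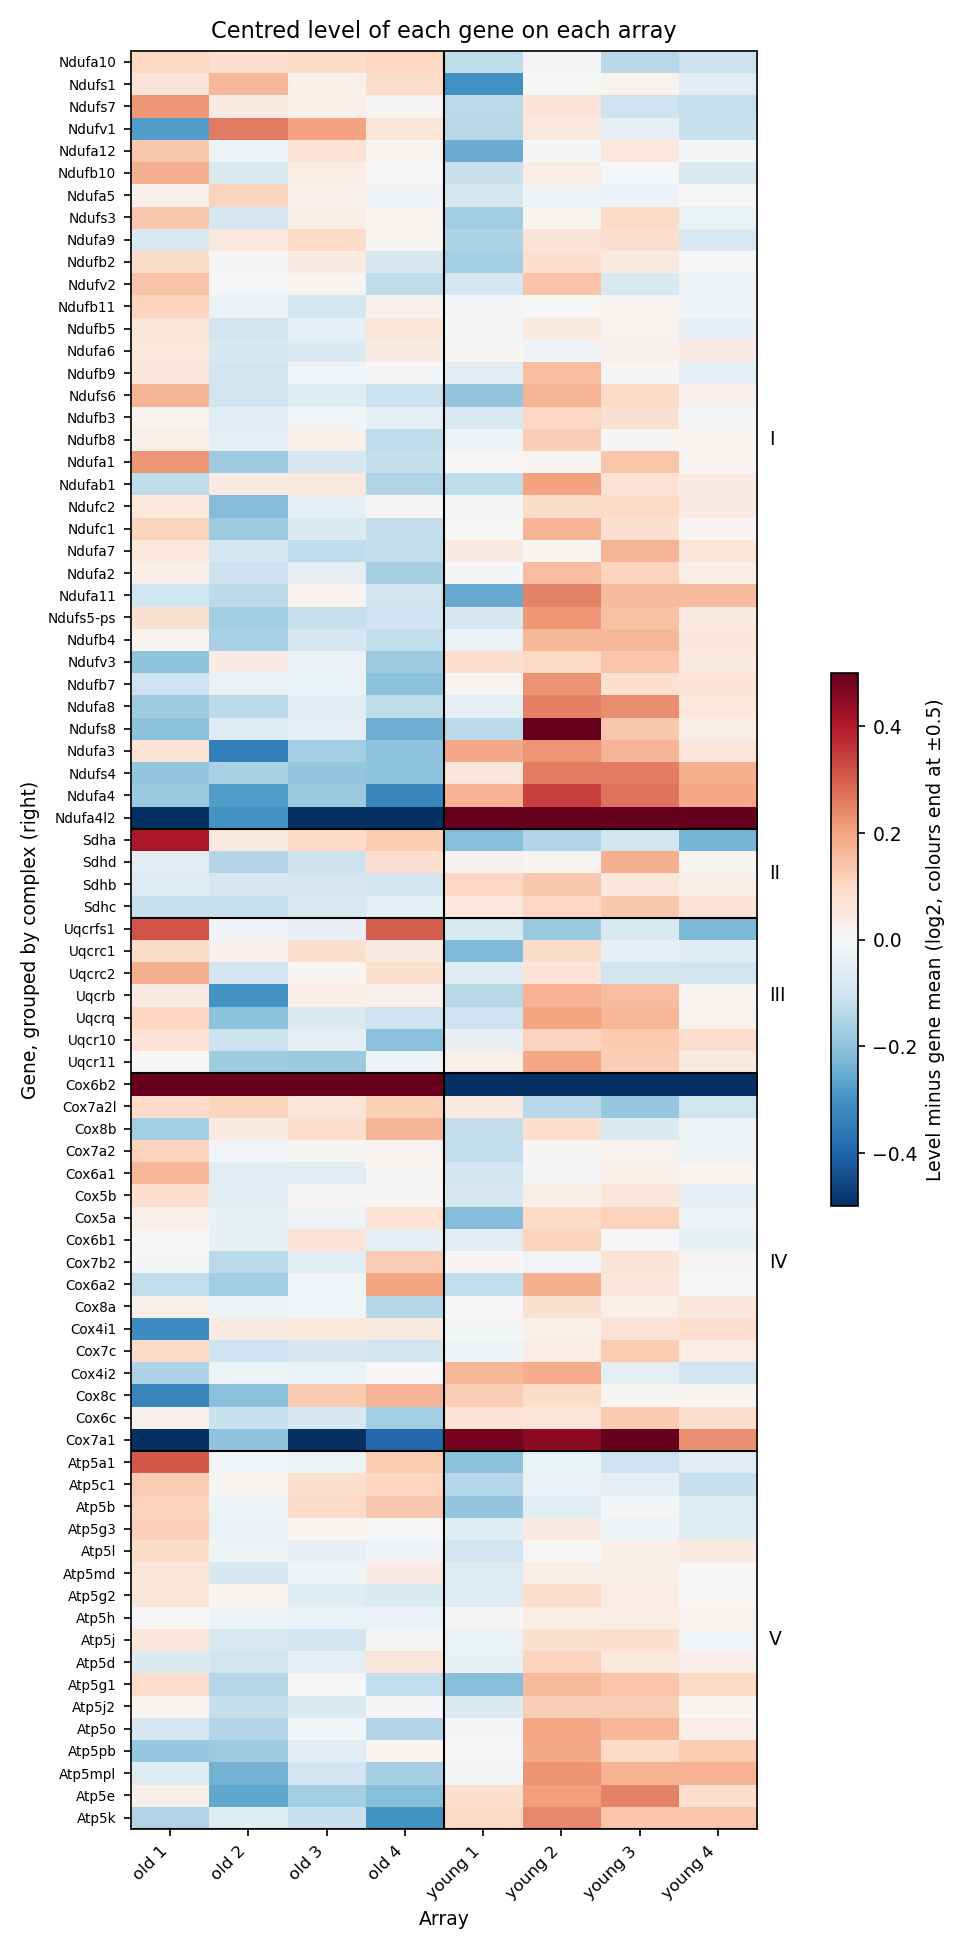
Centred log2 value of each of the 80 genes (rows, by complex) in each of the 8 arrays (columns, old left of young), with colours that end at plus and minus 0.5. Cox6b2, Cox7a1 and Ndufa4l2 carry the strongest colours on both sides. In complexes I, III and V many rows of old specimen 1 are redder than in the other old columns, and many rows of young specimen 1 are bluer than in the other young columns.

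Within complex I the greatest decrease was that of Ndufa4l2, a paralog of Ndufa4 that is a known target of hypoxia-inducible factor and is known to lower complex I activity. Its level was 9.22, 10.02, 9.74 and 9.66 in old fibroblasts, against 10.87, 10.86, 11.13 and 11.05 in young fibroblasts. All old arrays lay below all young arrays. The means were 9.66 ± 0.331 in old and 10.98 ± 0.134 in young fibroblasts (SD, n = 4 each), a difference of -1.32 ± 0.148 (SE), or 2.49-fold lower in old, with a limma adjusted p of 0.000348.

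Ndufa4 carries a complex I name and is now known as a component of complex IV. It read 9.80, 9.71, 9.80 and 9.66 in old fibroblasts, against 10.16, 10.33, 10.26 and 10.18 in young fibroblasts. The groups were well apart, with a difference of -0.49 ± 0.065 (1.4-fold lower in old, limma adjusted p = 0.000853). Ndufs4, an accessory subunit at the NADH-oxidising end of complex I whose loss in mice gives a Leigh-like disease, read 9.46, 9.49, 9.46 and 9.45 in old fibroblasts, against 9.71, 9.91, 9.91 and 9.83 in young fibroblasts. The old values lay within a few hundredths of each other and below every young value, and the difference was -0.38 ± 0.063 (limma adjusted p = 0.00309). The other probe sets of Ndufs4 were dimmer and differed from each other, at -0.45 (mean level 5.97) and 0.13 (mean level 4.64).

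The other complex I calls were smaller. Ndufa3, an accessory subunit of the membrane arm, read 10.80, 10.39, 10.56 and 10.53 in old fibroblasts, against 10.92, 10.95, 10.90 and 10.79 in young fibroblasts, so that old specimen 1 lay just above young specimen 4. Its difference was -0.32 ± 0.088 (limma adjusted p = 0.0319), and its second probe set gave -0.36. Ndufa10, an accessory subunit with the fold of a nucleoside kinase, was the only complex I gene that rose: it read 9.94, 9.92, 9.93 and 9.94 in old fibroblasts, against 9.71, 9.83, 9.70 and 9.73 in young fibroblasts. The groups did not overlap, and the difference was 0.19 ± 0.056 (limma adjusted p = 0.0426). The call of Ndufa3 held with 2 of the 8 single arrays left out, and that of Ndufa10 with 1 of 8. The call of Ndufa10 was also lost when its probe sets were averaged (0.17, limma adjusted p = 0.0924), with its most variable probe set (adjusted p = 0.267), after median centring (adjusted p = 0.099), after a second quantile normalization (adjusted p = 0.096) and with trended, robust moderation (adjusted p = 0.0505).

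The core subunits of complex I, which carry the flavin, the iron-sulfur clusters and the quinone site, gave no call. Among the 6 nuclear core genes measured, 5 lay above 0, with a median of 0.085 and a range of -0.28 to 0.17. The core gene below 0 was Ndufs8, at -0.28, and its other probe sets gave -0.31, -0.44 and -0.40. Ndufs1, the large iron-sulfur subunit, averaged 7.97 ± 0.059 in old and 7.80 ± 0.148 in young fibroblasts (SD, n = 4 each); its values did not overlap, and its limma adjusted p was 0.183. With an index of non-specific array signal as a covariate, which cannot be told apart from age, 2 of these 6 genes lay above 0 and their median was -0.058, so the direction of the core genes is not settled. Of the 26 accessory genes other than Ndufa4, 7 lay above 0, with a median of -0.07 and a range of -0.38 to 0.19, and 1 was called higher and 2 lower. With the covariate 3 of the 26 lay above 0, with a median of -0.134. These classes were drawn up with the values known, so the contrast between them is a description with no test.

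Some complex I genes gave unlike values by probe set. Ndufv1, which binds NADH and flavin, had a difference of 0.12 in the probe set used and 0.36 in its second, chosen here after the values were seen. Ndufv2, another core gene, had 0.017 and -0.145. Ndufc1 had -0.13 and -0.45, and Ndufb4 had -0.18 with a second probe set at -0.40. Over all complexes, 32 genes had at least 2 probe sets with a mean of at least 7, and in 25 of them the differences shared 1 sign. In 24 of the 32 the dimmest of these probe sets showed a difference of greater size than the brightest. The accessory subunit Ndufa1, the brightest probe set of complex I, averaged 11.60 ± 0.178 in old and 11.68 ± 0.067 in young fibroblasts (SD, n = 4 each), and the groups overlapped. Ndufs5-ps, an annotated pseudogene that the naming rule takes in and whose probe set may read transcripts of Ndufs5, had a difference of -0.16.

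In complex II the flavoprotein rose while a membrane anchor fell. Sdha, which oxidises succinate and carries the covalently bound flavin, read 11.06, 10.70, 10.75 and 10.78 in old fibroblasts, against 10.44, 10.50, 10.56 and 10.42 in young fibroblasts. Every old array lay above every young array, with old specimen 1 the highest, and the difference was 0.34 ± 0.085 (1.27-fold higher in old, limma adjusted p = 0.0204). A second Sdha probe set gave 0.35, and the remaining dim ones gave -0.045 and 0.01. The limma adjusted p was 0.0567 with young specimen 4 left out, 0.0535 after median centring of the arrays, and 0.0794 when all Sdha probe sets were averaged (difference 0.16).

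Sdhc, which with Sdhd anchors the enzyme in the membrane and binds haem and quinone, read 8.28, 8.28, 8.32 and 8.35 in old fibroblasts, against 8.45, 8.50, 8.53 and 8.46 in young fibroblasts. The groups did not overlap, but the difference was small, at -0.18 ± 0.055, and the limma adjusted p of 0.04996 lay just under the threshold. The call was lost with any 1 array left out. Sdhb, the iron-sulfur subunit, averaged 9.93 ± 0.013 in old and 10.10 ± 0.046 in young fibroblasts (SD, n = 4 each), with no overlap and a limma adjusted p of 0.0638. Sdhd averaged 8.04 ± 0.1 in old and 8.16 ± 0.083 in young fibroblasts, and its groups overlapped (difference -0.12 ± 0.072, limma adjusted p = 0.327).

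No gene of complex III passed the test. The largest increase was that of Uqcrfs1, the Rieske iron-sulfur protein, which read 8.35, 8.02, 8.00 and 8.34 in old fibroblasts, against 7.96, 7.85, 7.96 and 7.81 in young fibroblasts. The groups did not overlap, with a difference of 0.28 ± 0.096 and a limma adjusted p of 0.0717. The largest decrease was that of Uqcr11, a small accessory subunit, which read 10.24, 10.06, 10.05 and 10.21 in old fibroblasts, against 10.26, 10.43, 10.36 and 10.28 in young fibroblasts. Its groups were separated only narrowly, and the difference of -0.19 ± 0.071 had a limma adjusted p of 0.094. The core proteins Uqcrc1 and Uqcrc2 lay at 0.12 and 0.09, and the quinone-site subunits Uqcrb and Uqcrq at -0.10 and -0.14, none of them called.

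Among the genes counted with complex IV by name, the calls fell on isoforms known from other tissues. Ndufa4, a complex IV component counted with complex I by its name, was also called lower (-0.49). Cox6b2, known as the testis isoform of a subunit on the intermembrane side, read 6.99, 7.48, 7.07 and 6.98 in old fibroblasts, against 5.88, 5.74, 5.66 and 5.92 in young fibroblasts. The lowest old value was more than 1 log2 unit above the highest young value. The means were 7.13 ± 0.237 in old and 5.80 ± 0.121 in young fibroblasts (SD, n = 4 each), a difference of 1.33 ± 0.115, or 2.51-fold higher in old (limma adjusted p = 8.68e-05). Its paralog Cox6b1, the form found in most tissues, averaged 11.41 ± 0.05 in old and 11.42 ± 0.076 in young fibroblasts, with a difference of -0.01. Cox6b2 was represented by 1 probe set.

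Cox7a1, the isoform of heart and skeletal muscle, fell. It read 6.40, 6.81, 6.36 and 6.62 in old fibroblasts, against 7.49, 7.46, 7.72 and 7.24 in young fibroblasts. All old arrays lay below all young arrays, and the difference was -0.93 ± 0.123 (1.91-fold lower in old, limma adjusted p = 0.000829). Its paralog Cox7a2, found in most tissues, averaged 11.84 ± 0.058 in old and 11.77 ± 0.064 in young fibroblasts, a difference of 0.06 that did not pass the test. Cox7a2l, known as a factor that joins complexes III and IV in supercomplexes, averaged 11.32 ± 0.026 in old and 11.13 ± 0.103 in young fibroblasts (SD, n = 4 each). Its values did not overlap, its 3 probe sets gave 0.19, 0.23 and 0.31, and the limma adjusted p was 0.0768.

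Markers of skeletal muscle were also read, and they were dim, with a median level of 4.79. None of the 12 skeletal muscle markers was called by limma (1 was higher and 1 lower at an unadjusted p under 0.05), their mean level lay between 4.70 and 4.96 in old arrays and between 4.77 and 4.85 in young arrays, and Acta1 averaged 4.08 in old and 4.09 in young fibroblasts. Ucp1, which marks brown fat, averaged 4.96 in old and 5.06 in young fibroblasts. Cidea, of the same adipocyte list, averaged 4.67 in old and 4.27 in young fibroblasts and was called higher (limma adjusted p = 0.0389). The part of muscle or fat cells in the Cox7a1 difference was not tested.

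The remaining complex IV pairs showed no call. Cox4i2, the isoform of lung, averaged 5.71 ± 0.068 in old and 5.82 ± 0.143 in young fibroblasts, and Cox4i1, the form of most tissues, 11.64 ± 0.182 in old and 11.73 ± 0.042 in young fibroblasts (SD, n = 4 each). The muscle and heart isoforms Cox6a2 and Cox8b differed by -0.055 and 0.065, and their paralogs Cox6a1 and Cox8a by 0.03 and -0.078. The isoforms Cox7b2 and Cox8c, known from testis, differed by -0.035 and -0.12. Their mean levels were 3.635 and 6.12, against a median of 5.99 for all genes. Cox7b2 was among the dimmest genes of the arrays (percentile 2.3). Of the testis isoforms Cox6b2 was the one called. Among the subunits of most tissues, Cox6c averaged 11.825 ± 0.079 in old and 11.995 ± 0.031 in young fibroblasts, with no overlap and a limma adjusted p of 0.0857. Without the tissue isoforms and Ndufs5-ps, an alternative chosen after the data were seen, 2 genes rose and 7 fell, and the median of complex IV was 0.004.

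**Figure D4:**
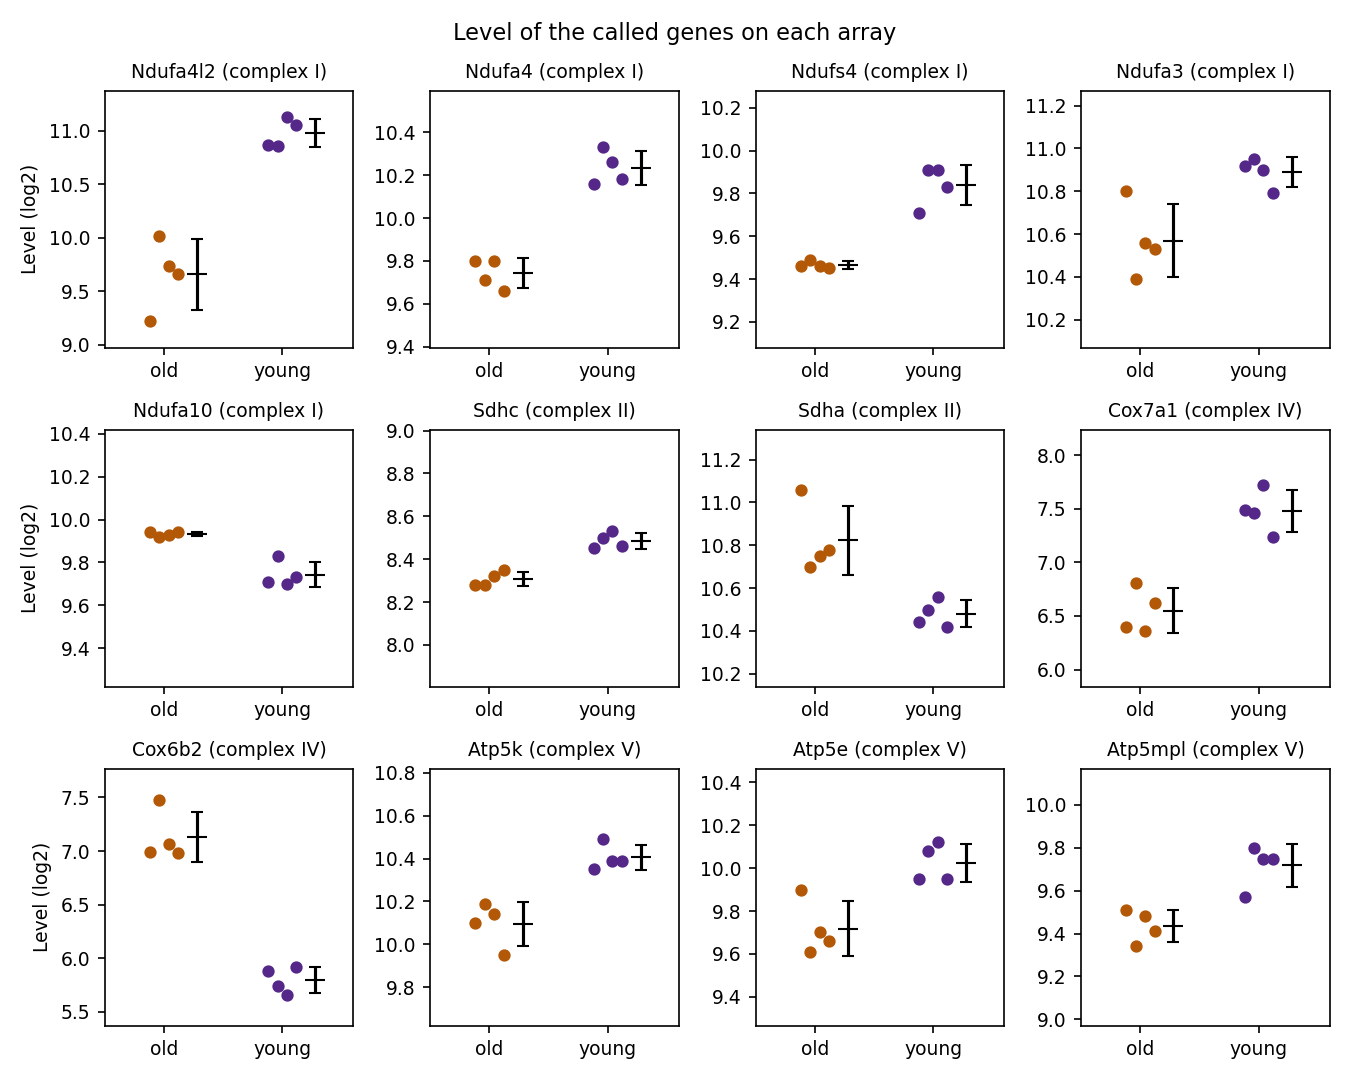
Log2 level of each of the 12 called genes in each array, old left of young; points are arrays, and the bars give the mean and SD of 4 arrays. The means of Cox6b2, Ndufa4l2 and Cox7a1 differ between the ages by about a log2 unit or more, and Ndufa3 is the one gene whose groups overlap.

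In complex V the 3 genes that fell encode small subunits. Atp5k, subunit e of the membrane part and involved in joining ATP synthase into dimers, read 10.10, 10.19, 10.14 and 9.95 in old fibroblasts, against 10.35, 10.49, 10.39 and 10.39 in young fibroblasts. The groups did not overlap, the difference was -0.31 ± 0.069 (limma adjusted p = 0.0125), and the second probe set gave -0.39. Pseudogene copies of Atp5k are listed, and its probe sets may read their transcripts. Atp5e, the epsilon subunit at the foot of the central stalk, read 9.90, 9.61, 9.70 and 9.66 in old fibroblasts, against 9.95, 10.08, 10.12 and 9.95 in young fibroblasts. Old specimen 1 lay close under the young values, and the difference was -0.31 ± 0.079 (limma adjusted p = 0.0239).

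Atp5mpl, a small membrane proteolipid of the enzyme, read 9.51, 9.34, 9.48 and 9.41 in old fibroblasts, against 9.57, 9.80, 9.75 and 9.75 in young fibroblasts. The groups were separated narrowly by old specimen 1 and young specimen 1, with a difference of -0.28 ± 0.071 (limma adjusted p = 0.0217). The calls of Atp5e and Atp5mpl each held with 3 of the 8 single arrays left out, and that of Atp5k with all 8.

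The large subunits of the catalytic head lay above 0 and were not called. Atp5a1, the alpha subunit, averaged 10.63 ± 0.154 in old and 10.44 ± 0.076 in young fibroblasts, and Atp5c1, the gamma subunit, 10.62 ± 0.053 in old and 10.46 ± 0.054 in young fibroblasts (SD, n = 4 each). Neither overlapped between the ages, with limma adjusted p-values of 0.147 and 0.0888. With the index of non-specific signal as a covariate the difference of Atp5a1 turned to -0.11, so its direction is not settled, and those of Atp5b and Atp5c1 were 0.086 and 0.095. Atp5b, the catalytic beta subunit, differed by 0.16 ± 0.066 (limma adjusted p = 0.134), and Atp5d, the delta subunit, by -0.078. The genes of the proton-carrying c ring, Atp5g1, Atp5g2 and Atp5g3, which encode the same mature protein, differed by -0.09, -0.033 and 0.05. Of the stalk subunits, Atp5o and Atp5pb differed by -0.20 and -0.21, and Atp5h averaged 11.67 ± 0.014 in old and 11.72 ± 0.015 in young fibroblasts, a difference of -0.048 that was small although the arrays did not overlap.

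The promoter table of RefSeq (assembly GRCm38.p6) held 69 windows of 300 bases, 250 before the start and 50 after it, for 64 of the 80 genes. Exact letters were searched on both strands for sites of regulators known to act on respiratory chain genes. The core of the NRF1 site, GCATGCG, was found in 11 of the 69 windows (15.9%), against 3.58% of all 32851 windows and 4.44% of the windows of protein-coding genes. The core bound by ETS factors such as GABP, CCGGAAG, was found in 15 (21.7%), against 8.86% and 11.6%. The YY1 letters AAGATGGC were found in 10 (14.5%), against 2.75% and 3.05%, and the letters bound by ERR factors, AAGGTCA, in 7 (10.1%), against 4.72% and 4.08%. GCATGCG overlaps its own reverse complement in palindromes, and such a window was counted once. A match to these letters is not evidence of binding.

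The 250 bases before the start are given for 4 of the called genes, 5′ to 3′ on the gene's strand and in GRCm38.p6, to set small complex V subunits that fell beside the complex IV isoforms that moved most. Atp5k lies at chr5:108434400-108434649 (minus strand), Atp5e at chr2:174464102-174464351 (minus strand), Cox6b2 at chr7:4753095-4753344 (minus strand) and Cox7a1 at chr7:30183921-30184170 (plus strand). Capitals mark letters of the motifs searched. In Atp5k they are the palindrome that reads as the NRF1 core on both strands, with matches beginning 49 and 48 bases before the start. In Atp5e they are the ETS core on the opposite strand, beginning 102 bases before the start. The 250 bases given for Cox6b2 and Cox7a1 held none of the 4 motifs in these exact letters.
Atp5k: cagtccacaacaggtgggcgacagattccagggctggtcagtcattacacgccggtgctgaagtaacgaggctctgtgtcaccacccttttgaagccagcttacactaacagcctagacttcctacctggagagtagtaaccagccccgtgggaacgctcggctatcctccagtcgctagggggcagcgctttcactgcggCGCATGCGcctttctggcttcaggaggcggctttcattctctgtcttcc
Atp5e: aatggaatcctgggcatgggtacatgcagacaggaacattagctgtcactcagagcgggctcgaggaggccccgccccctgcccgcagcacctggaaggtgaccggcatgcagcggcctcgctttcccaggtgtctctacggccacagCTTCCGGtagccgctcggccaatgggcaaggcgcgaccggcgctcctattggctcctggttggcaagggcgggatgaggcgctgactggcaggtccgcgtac
Cox6b2: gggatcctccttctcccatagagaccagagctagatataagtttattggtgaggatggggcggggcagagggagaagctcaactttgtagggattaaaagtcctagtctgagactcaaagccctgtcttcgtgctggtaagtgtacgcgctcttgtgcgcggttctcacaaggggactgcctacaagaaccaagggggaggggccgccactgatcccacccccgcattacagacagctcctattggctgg
Cox7a1: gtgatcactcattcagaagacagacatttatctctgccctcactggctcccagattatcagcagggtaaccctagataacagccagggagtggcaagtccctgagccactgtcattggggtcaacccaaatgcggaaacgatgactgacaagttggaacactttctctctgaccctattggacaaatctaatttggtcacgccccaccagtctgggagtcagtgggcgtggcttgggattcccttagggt

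Called genes with a window were few. Of the 6 windows of genes that fell, 1 held the NRF1 core and 2 each of the ETS, ERR and YY1 letters. These counts cover all 300 bases. The ERR and YY1 matches, and the ETS match of the window other than that of Atp5e, did not lie wholly within the 250 bases before the start. Of the 3 windows of genes that rose, 0 held any of the 4 motifs. The 60 windows of genes not called held the NRF1 core in 10 (16.7%) and the ETS core in 13 (21.7%).

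The assembly factors, which build the complexes without staying in them, moved in both directions. Of 14 complex I assembly factors measured, Acad9 rose (0.36, limma adjusted p = 0.0216) and Timmdc1 fell (-0.26, limma adjusted p = 0.0349), with a median of -0.008. Of 9 assembly factors of complexes II and III, Sdhaf3 (0.41) and Ttc19 (0.28) rose and Uqcc2 (-0.53), Sdhaf4 (-0.44) and Sdhaf1 (-0.37) fell, with a median of -0.033. Of 21 assembly factors of complex IV, Surf1 (0.41) and Coa5 (0.30) rose, and Cox19 (-0.61), a copper-handling protein, Cox16 (-0.39) and Higd1a (-0.35) fell, with a median of -0.135. None of the 4 assembly factors of complex V was called by limma, and 2 of them were lower at an unadjusted p under 0.05. Against these counts stand 9.87% higher and 7.66% lower among all genes.

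Enzymes of the tricarboxylic acid cycle supply the electrons, and complex II also belongs to that cycle. They were listed with the pyruvate dehydrogenase subunits Pdha1, Pdhb, Dlat and Pdhx, and the list lay mostly above 0. Of 16 measured, 15 lay above 0, with a median of 0.187 against 0.007 for all genes. Suclg2 (0.45), a subunit of succinyl-CoA ligase, citrate synthase Cs (0.33) and Dlat (0.28), a subunit of pyruvate dehydrogenase, rose, and the mitochondrial isocitrate dehydrogenase Idh2 (-0.60) fell. At an unadjusted p under 0.05, 9 were higher and 1 lower, beside 16.6% higher and 13.1% lower among all genes, and with the index of non-specific signal as a covariate the median was 0.015. Of 16 genes of the mitochondrial membranes and protein import, which include the outer membrane channels Vdac1, Vdac2 and Vdac3, Opa1 (0.48), which fuses inner membranes, Tomm70a (0.39) and Tomm20 (0.26) rose and Timm23 (-0.29) fell, with a median of 0.104. Of 17 regulators, Gabpb2 (0.51) and Gabpa (0.33), subunits of an ETS factor, and Ppargc1b (0.34) rose, and Tfb1m (-0.31) fell, with a median of 0.057. Gabpb1, another subunit of that factor, was not called (0.165, limma adjusted p = 0.755), and Ppargc1b was dim (mean level 4.365). Among all genes, 9.87% were called higher and 7.66% lower. With the index as a covariate, the median was -0.055 for the membrane and import genes and 0.001 for the regulators. A further 7 genes lay outside the naming rule. They were Cyc1, a complex III subunit, the electron carriers Cycs, Etfa and Etfdh, Atpif1, an inhibitor of ATP synthase, Dmac2 and Dmac2l. Of these, Etfa (0.43, limma adjusted p = 0.014), which carries electrons of fatty acid oxidation, rose, and the median was 0.087. With the covariate the median of these genes was -0.025. Cyc1, which the complex III counts above leave out, differed by 0.06 and was not called.

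The sorted cells carried the genes of their gate: Pdgfra averaged 8.52 in old and 8.36 in young fibroblasts, and Cd34 11.68 in old and 11.73 in young fibroblasts. Of 9 fibroblast markers, Col3a1 fell (-0.28, limma adjusted p = 0.00765). The mean of the list lay between 10.99 and 11.07 in old arrays and between 11.10 and 11.25 in young arrays, with no overlap. Of 10 keratinocyte markers, the basal keratins Krt14 (9.75 in old, 8.09 in young fibroblasts) and Krt5 (10.76 in old, 9.72 in young) and the junction gene Perp (9.42 in old, 7.80 in young) were called higher, and Trp63 (7.195 in old, 7.60 in young) lower. Their mean lay between 7.88 and 9.03 in old arrays and between 7.16 and 8.35 in young arrays, so the ages overlapped. Even so, 9 of the 10 keratinocyte markers lay above 0, with a median difference of 0.738. Of 9 endothelial and mural markers, Tek was called higher (8.05 in old, 6.32 in young fibroblasts). Rgs5 (5.425 in old, 4.23 in young) was not called, although its values did not overlap. The list mean was 5.46 to 6.01 in old and 5.18 to 5.41 in young arrays, with no overlap. Of 7 adipocyte markers, Fabp4 (8.34 in old, 5.32 in young fibroblasts) and Cidea were called higher. The list mean was 4.99 to 5.27 in old and 4.44 to 4.92 in young arrays, with no overlap. Adipoq, which defines fat cells, averaged 3.59 in old and 3.62 in young fibroblasts. Of 12 macrophage and leukocyte markers, the lysozyme gene Lyz2 rose (5.80 in old, 4.72 in young fibroblasts, limma adjusted p = 0.00155) and the receptor gene Csf1r fell (6.65 in old, 8.57 in young, limma adjusted p = 5.9e-06), while the list mean was 4.83 to 4.91 in old and 4.84 to 4.91 in young arrays. Of 7 Schwann and pigment cell markers, Mlana fell (4.33 in old, 4.90 in young fibroblasts, limma adjusted p = 0.0324), and the list means overlapped (5.63 to 5.75 in old, 5.69 to 5.82 in young arrays). The part of these cells in the differences of the subunit genes was not tested.

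The arrays of the ages also differed in non-specific signal. An index of 8 control probe sets of high GC content was 5.53, 5.82, 6.18 and 5.78 in old arrays, against 6.62, 6.34, 6.42 and 6.36 in young arrays, with no overlap, so that index and age cannot be told apart. With the index as a covariate, 1 of the 80 genes was called, Cox6b2 (difference 1.42, limma adjusted p = 0.0336), beside 0.398% of all genes higher and 0.579% lower. At an unadjusted p under 0.05, limma with the covariate gave 1 subunit gene higher and 9 lower, beside 6.83% and 6.17% of all genes. None of the 12 differences turned sign, and 7 were larger in size, among them Ndufa4 (-0.52, limma adjusted p = 0.121) and Cox7a1 (-0.95, limma adjusted p = 0.132). Ndufa4l2 stood at -0.997 (limma adjusted p = 0.151) and Sdha at 0.12 (limma adjusted p = 0.853). The median of the 80 genes was then -0.124, against 0.012 for all genes. A control of RNA ends, the 3′ minus 5′ difference of Gapdh, was 0.02, -0.30, -0.23 and -0.07 in old arrays, against -0.25, -0.23, -0.28 and -0.28 in young arrays, with old specimens 1 and 4 apart from the rest.

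**Figure D5:**
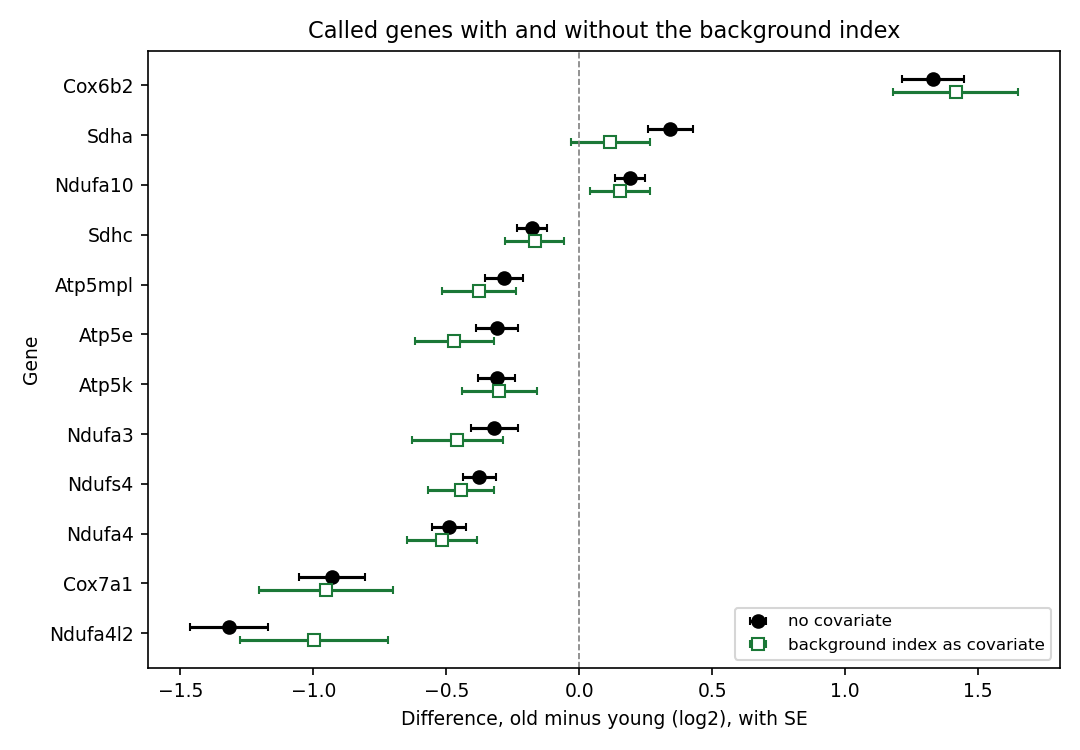
Old minus young difference (log2, x axis) of each of the 12 called genes (rows) without a covariate (filled circles) and with the background index as a covariate (open squares); bars are SE. Every gene stays on its side of 0, the bars are wider with the covariate, and Sdha shrinks most in relation to its size (0.34 without the covariate, 0.12 with it).

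Apart from that covariate, 6 of the 12 called genes kept their call under every alternative in which they were tested and with any 1 array left out: Ndufa4l2, Ndufa4, Ndufs4, Cox7a1, Cox6b2 and Atp5k. With 1 array left out at a time, between 1 and 3 genes rose and between 5 and 9 fell. The number that fell was 5 without old specimen 2, without old specimen 4, without young specimen 2 and without young specimen 3, and 1 gene rose without young specimen 4.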

How the data were processed

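RNA of sorted dermal fibroblasts from 4 old and 4 young mice was measured on 8 Affymetrix mouse perfect-match arrays. Each deposited value is the log2 summary of 1 probe set on 1 array; RMA and the R package affy are named per the submitters' processing notes, without versions. RMA corrects background, quantile-normalizes the arrays and summarises each probe set by median polish, which would conceal a change common to most transcripts and compresses differences of dim and very bright probe sets. Per the labels' protocols, 6 ng of RNA was amplified before labelling. Levels of different probe sets are not on a common scale.

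Of 45141 probe sets, 28898 carried 1 symbol, 551 several and 15692 none in the platform annotation; the last classes were not used. The probe set with the brightest average signal stood for each of 17097 genes. Old arrays were set against young arrays in R 4.3.3 with limma 3.58.1 (lmFit, eBayes, no covariate; Benjamini-Hochberg over all genes, threshold 0.05); figures were drawn with matplotlib 3.10.9. The fit was tested on simulated data. The number of arrays limits the precision. Fold changes are powers of 2 of the log2 difference.

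The subunit genes, lists and motifs were chosen with earlier results of these data known. Genes given with full values were the called genes, up to 2 genes per direction and complex with the largest change among those without overlap, the brightest gene of each complex, complex II, and tissue isoforms with their paralogs; a few others are given as examples. From other lists, up to 4 called genes with the largest change, and in some lists all called genes, were named. Gene IDs of all 80 subunit genes and of 16936 of the 17097 genes were found in a RefSeq table of GRCm38.p6, used for names and promoters. Alternatives were another scaling, filters on dim genes, other probe set rules, moderation, array weights, the background index as a covariate, a replicate block, single arrays left out, membership and threshold. All 8 columns of values were used.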

Additional observations from a re-analysis of the deposited data

Results flagged for a closer look

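In 4 of the subunit genes described, 1 animal stood apart from the others of its age by Dixon's test at the 95% level, applied to 37 genes in each age group; chance alone gives some such cases among that many groups. Cox4i1, the main isoform of its complex IV subunit, read 11.37 in old specimen 1, against 11.73 to 11.74 in the other old arrays. Atp5g1, a c ring gene of complex V, read 9.18 in young specimen 1, against 9.49 to 9.55 in the other young arrays. Ndufa1 of complex I read 11.78 in young specimen 3, against 11.64 to 11.65 in the other young arrays, and Sdhd of complex II read 8.28 in young specimen 3, against 8.11 to 8.12.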

How the results depend on the processing

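Of the 80 genes, 3 rose and 9 fell in the fit reported. Specimen number as a replicate block gave 2 that rose and 7 that fell. Same-numbered arrays correlated at 0.285, 0.052, -0.044 and 0.224 in their deviations, and old and young arrays of unlike number between -0.255 and 0.213. The same-numbered arrays of specimens 1 and 4 thus lay above every other pair. The labels do not tie numbers to days, so the numbers were not taken as pairs in the fit reported. Rising genes numbered 1 after median centring, 1 with the background index as a covariate, 6 at an adjusted p under 0.10, 8 at an unadjusted p under 0.05 and 5 with the dimmest probe set of at least 7, an alternative chosen after the data were seen. Falling genes numbered 15 after a second quantile normalization, 14 with array weights, 0 with the covariate (9 at an unadjusted p under 0.05 in that limma fit), 16 at an adjusted p under 0.10 and 18 at an unadjusted p under 0.05. With 1 array left out they ranged between 1 and 3 rising and between 5 and 9 falling. Among all genes, 1688 were higher and 1310 lower in the fit reported, against 1415 higher and 1716 lower after the second quantile normalization.

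The median of complex I was -0.135 with the most variable probe set and with the dimmest. That of complex II was -0.19 after the second quantile normalization, that of complex III -0.2 and that of complex V -0.16 with the covariate. The median of complex IV was 0.004 without genes below 6 and without tissue isoforms, and -0.072 with the most variable or dimmest probe set and -0.07 with the covariate. With 1 array left out the medians lay between -0.093 and -0.038 (complex I), -0.163 and -0.018 (complex III) and -0.052 and 0.001 (complex IV). With the covariate, 2 of the 6 core genes of complex I lay above 0, against 5 without it. The cause of these shifts was not tested. None of the 12 called differences turned sign under the alternatives run. Cox6b2 was not tested without genes below 7.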

Other observations

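Genes of the response to low oxygen were listed after the fall of Ndufa4l2 had been seen, and their counts support nothing. Of 16 measured, Epas1 (1.06), a hypoxia-inducible factor, Bnip3 (0.71), a mitophagy receptor, and the glucose transporter Slc2a1 (0.58) rose in old fibroblasts. Vhl (-0.41), which marks hypoxia-inducible factors for breakdown, and Higd1a (-0.35), which acts on complex IV, fell. The median of the list was 0.077, against 0.007 for all genes.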
